A study of Mus musculus with 9 samples.

Results

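Genes of angiopoietin-Tie and endothelial Notch signalling were followed in mouse retina after injection of a VEGF-targeting peptide into the eye. They were chosen by symbol: Angpt1, Angpt2, Tek, Tie1, Dll4, Notch1, Notch4, Jag1, Hey1 and Hey2, 10 of the 23889 genes tested. Each probe whose RefSeq accession matched a symbol was taken, which gave 11 of 39429 probes, and all 10 genes passed the filter on dim probes. The samples came from retinas of adult male C57BL/6 mice, collected at day 7 after injection into the vitreous of the right eye. The 3 groups received AAP, HAN or phosphate-buffered saline (PBS, the negative control). Per the series title both peptides bind vascular endothelial growth factor (VEGF) with high affinity, and the labels word a dose of 1 µM for all groups, PBS included. A group had 12 mice, and 4 retinas were pooled for each sample, so that the 3 arrays of a group are 3 pools and the p-values measure the spread between pools. The labels name no genetic change in any group.

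Angiopoietins are secreted ligands of the endothelial receptor tyrosine kinase Tek, also known as Tie2. Angpt1, made largely by mural and other perivascular cells, activates Tek and keeps vessels quiet and tight, whereas Angpt2 is released by endothelial cells and can block or weakly activate Tek. Notch signalling passes between neighbouring cells: the ligands Dll4 and Jag1 bind Notch receptors, whose cleaved intracellular part joins the DNA-binding protein RBPJ and turns on targets such as Hey1 and Hey2. In the growing mouse retina VEGF induces Dll4 in the tip cells of sprouts, and Dll4 restrains sprouting in the cells behind them. Notch1 and Jag1 are also made by cells other than endothelium. The cells that made each transcript were not measured, so a level in whole retina, that of Angpt2 included, cannot be read as that of vessels alone.

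Levels are log2 intensities of the processed array signal minus the 75th percentile of the same array, so that 0 is the signal of that percentile. The 9 arrays were close to one another, with Pearson's r across genes of 0.980 to 0.995 in the 9 pairs within groups and of 0.979 to 0.995 in 27 pairs of arrays from different groups. The retina label was checked with 15 rod and cone markers, all of which were well above background on every array. Of 20 endothelial markers 19 were tested, and of these at most 1 on an array was not well above background. Skeletal muscle markers separated pools of a single group: the mean of the 11 tested of 14 listed stood 5.69 (AAP 1) and 4.41 (AAP 3) above the PBS mean, against -0.28 in AAP 2, -0.14 to -0.00 in HAN pools and -0.17 to 0.28 in PBS pools. Lens markers (14) also differed between pools of a group. Their mean relative to PBS was -1.49, 2.26 and -2.18 in AAP 1 to AAP 3. It was 1.38, -2.32 and 0.94 in PBS 1 to PBS 3 and 0.78 to 1.60 in HAN pools. The mean of 9 cornea, iris and ciliary markers was 1.67 in PBS 1, 1.63 in AAP 1 (median -0.20) and -1.55 to -0.11 elsewhere. AAP 2 thus had the highest lens mean. The part of lens or cornea tissue was not tested. Because of the muscle markers, AAP values are also given for AAP 2 alone. This applies where AAP was set apart from PBS or HAN or where AAP 1 and AAP 3 decided the value. The arrays lay on 3 slides. Slide 1 held all PBS arrays and AAP 1, slide 2 held AAP 2, AAP 3, HAN 1 and HAN 2, and slide 3 held HAN 3. HAN and PBS had no slide in common, so slide and group cannot be told apart in that comparison, except through the AAP arrays. AAP 2 also shared no slide with PBS, so a value of AAP 2 alone against PBS cannot be told apart from a slide difference.

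None of the 10 genes passed an adjusted p of 0.05 (limma, Benjamini-Hochberg over 23889 genes) in any comparison. At an unadjusted p under 0.05, 3 of 10 differed between AAP and PBS, 0 of 10 between HAN and PBS, and 1 of 10 between AAP and HAN. In AAP against PBS 6.78% of all genes met that threshold. Notch1 and Jag1 were on the higher side there, as were 4.09% of all genes, and Hey2 on the lower side, as were 2.68%. The background was 9.66% in HAN against PBS and 8.54% in AAP against HAN, where Notch1 was on the higher side, as were 4.28% of all genes. At the adjusted threshold the background was 0.00419% (1 gene) in AAP against PBS, 0.00419% (1 gene) in HAN against PBS and 0.0% in AAP against HAN. The groups did not overlap for 2 of 10 in AAP against PBS (12.0% of all genes), 0 of 10 in HAN against PBS (20.9%) and 2 of 10 in AAP against HAN (14.3%). These were Jag1 higher (6.43% of all genes) and Hey2 lower (5.53%) in AAP against PBS, and Notch1 higher (7.52%) and Hey2 lower (6.82%) in AAP against HAN. AAP and HAN were both set against the same 3 PBS arrays, so these comparisons are not independent. The median log2 change of the 10 genes was 0.09 in AAP against PBS, -0.06 in HAN against PBS and 0.01 in AAP against HAN, beside a median of 0.00 over all genes in each comparison. All 10 changes lay within the range that held the central 95% of all genes, which was -0.53 to 0.43 in AAP against PBS, -0.46 to 0.50 in HAN against PBS and -0.62 to 0.52 in AAP against HAN.

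**Figure D1:**
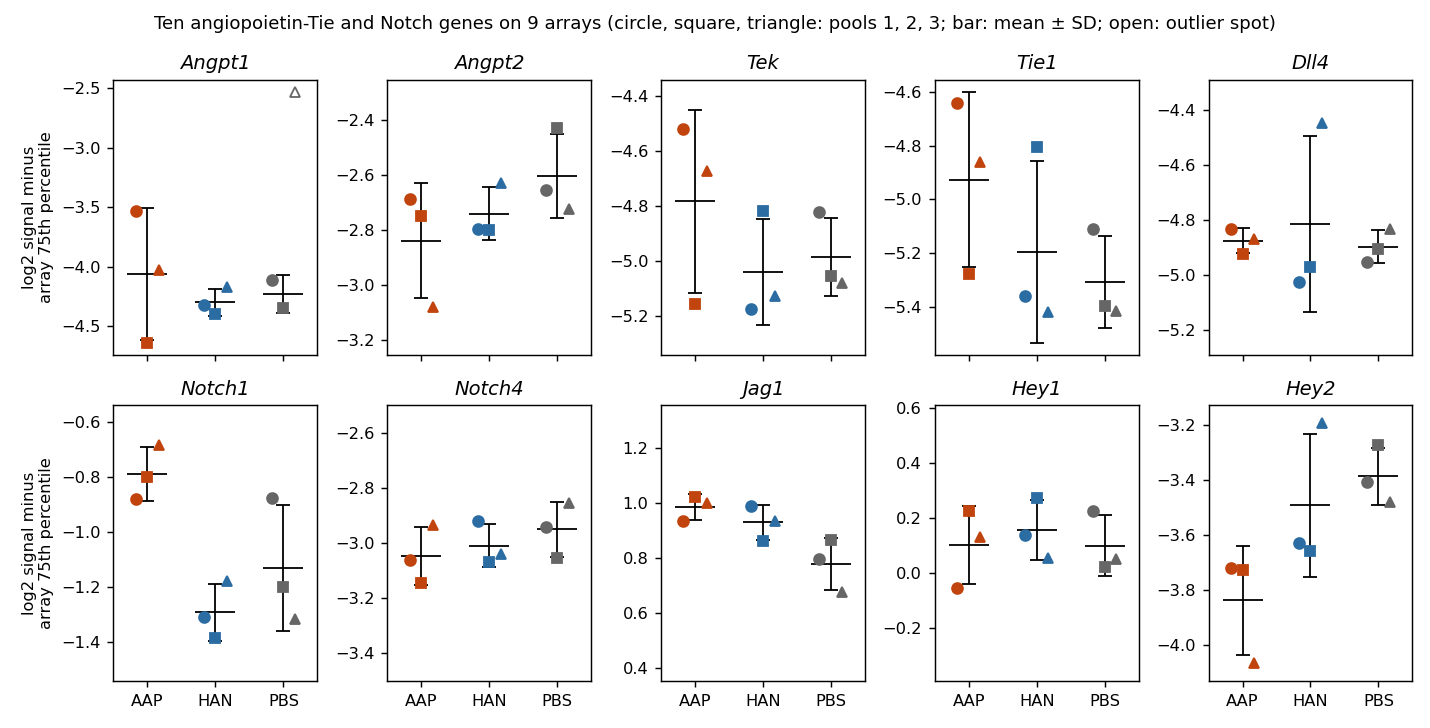
Level of each of the 10 genes on the 9 arrays (vertical axis: log2 signal minus the array's 75th percentile; circle, square and triangle: pools 1, 2 and 3; bars: mean and SD; open symbol: an Angpt1 spot marked as an outlier and left out of the mean). Jag1 in AAP lay wholly above PBS, Hey2 in AAP wholly below PBS and HAN, and Notch1 in AAP wholly above HAN.

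Among the ligands of Tek, Angpt1 (chromosome 15) had log2 levels of -3.53, -4.64 and -4.02 in AAP 1, AAP 2 and AAP 3, of -4.33, -4.40 and -4.18 in HAN pools and of -4.12 and -4.34 in PBS 1 and PBS 2. The spot of PBS 3 was marked as non-uniform and left out. The AAP pools thus held both the highest and the lowest of the 8 values, and the groups overlapped. The log2 change was 0.17 in AAP against PBS (95% confidence interval -0.53 to 0.86, limma adjusted p = 0.925), with 2 PBS arrays in the fit. It was -0.07 in HAN against PBS (-0.76 to 0.62, adjusted p = 0.958) and 0.23 in AAP against HAN (-0.38 to 0.85, adjusted p = 0.748). The probe has a single spot on an array, and the marked spot of PBS 3 read -2.53. With that spot kept, an alternative chosen after seeing the data, the change turned to -0.40 in AAP against PBS and was -0.63 in HAN against PBS. AAP 2 alone stood -0.41 from PBS, and AAP 1 alone, on the slide of the PBS arrays, 0.70. The mean of 10 tested pericyte and smooth muscle markers, from the mural cells that make Angpt1, stood at 0.25, -0.27 and -0.78 from PBS in AAP pools, against -0.17 to 0.12 in HAN pools and -0.14 to 0.26 in PBS pools. In AAP 2 the median of these markers was 0.01, with 5 of 10 above the PBS mean, so a few markers carried its mean. Angpt1 had r = 0.25 with the mean of the list over 8 arrays. The part of mural cell content in the Angpt1 level was not tested.

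Angpt2 (chromosome 8), the antagonist or partial agonist, had log2 levels of -2.69, -2.75 and -3.08 in AAP pools, -2.80, -2.80 and -2.63 in HAN pools and -2.65, -2.43 and -2.72 in PBS pools. AAP 3 was the lowest array and PBS 2 the highest, and all groups overlapped. On the log2 scale Angpt2 differed by -0.24 in AAP against PBS (95% interval -0.52 to 0.05, limma adjusted p = 0.747). In HAN against PBS the difference was -0.14 (adjusted p = 0.761), and in AAP against HAN -0.10 (adjusted p = 0.775). The balance of both ligands, the Angpt2 minus the Angpt1 level relative to its PBS mean, was -0.79 (AAP 1), 0.26 (AAP 2) and -0.68 (AAP 3), against -0.10, -0.03 and -0.08 in HAN pools and -0.17 and 0.29 in PBS 1 and PBS 2. AAP 2 thus stood with PBS 2 on this log2 difference, and the other AAP pools below every HAN and PBS pool measured. PBS 3 had no value, as its Angpt1 spot was left out. With that spot kept, Angpt1 in PBS 3 stood 1.70 above the PBS mean and Angpt2 at -0.12. PBS 3 would then lie below every AAP pool, so the separation depends on leaving that spot out. AAP 2 alone had an Angpt2 level -0.15 from PBS.

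The receptors Tek and Tie1 varied together across arrays and are shown with their promoters for that reason. Tek binds the angiopoietins, and Tie1, for which no angiopoietin is a high-affinity ligand, pairs with Tek and modulates it. Both lie on chromosome 4 and are best known as endothelial genes, whose promoters are often bound by ETS family factors. The 250 bases before the start of each gene are from RefSeq (GRCm38.p6), 5′ to 3′ on the gene's strand. The capitals mark the ETS-type motif AGGAAG (read here as CTTCCT on the other strand) and the RBPJ core TGGGAA (read as TTCCCA).
Tek, chr4:94739039-94739288, plus strand: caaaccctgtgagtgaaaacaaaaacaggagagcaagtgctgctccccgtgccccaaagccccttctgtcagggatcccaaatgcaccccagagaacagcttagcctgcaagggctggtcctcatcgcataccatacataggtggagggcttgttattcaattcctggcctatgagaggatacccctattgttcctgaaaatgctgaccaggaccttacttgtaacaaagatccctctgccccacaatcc
Tie1, chr4:118489850-118490099, minus strand: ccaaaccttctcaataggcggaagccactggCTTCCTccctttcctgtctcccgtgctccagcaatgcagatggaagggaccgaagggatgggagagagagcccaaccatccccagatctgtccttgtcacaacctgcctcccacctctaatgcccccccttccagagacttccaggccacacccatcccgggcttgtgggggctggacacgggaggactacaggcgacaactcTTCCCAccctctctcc
Tek had no AGGAAG and no TGGGAA on either strand. Tie1 had 1 of each, at 219 to 214 bases and at 16 to 11 bases before the start. The shorter core GGAA, which both longer motifs contain, was found 2 times in Tek and 7 times in Tie1 over both strands. Of 32851 mouse promoter windows of the same length, 29.5% held AGGAAG, 21.6% TGGGAA and 93.4% GGAA, so a match or its lack describes these letters and nothing of binding. RefSeq windows were at hand for 7 of the 10 genes. Of the 4 windows not shown, Notch4 held 3 AGGAAG matches, and Dll4, Notch1 and Jag1 held neither longer motif.

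Tek had log2 levels of -4.52, -5.16 and -4.67 in AAP pools, -5.17, -4.82 and -5.13 in HAN pools and -4.82, -5.05 and -5.08 in PBS pools. AAP 1 and AAP 3 were the highest arrays, whereas AAP 2 lay below every PBS array, so the groups overlapped. On the log2 scale Tek differed by 0.20 in AAP against PBS (95% interval -0.20 to 0.61, limma adjusted p = 0.844), -0.05 in HAN against PBS (adjusted p = 0.944) and 0.26 in AAP against HAN (-0.15 to 0.66, adjusted p = 0.633). Tie1 had log2 levels of -4.64, -5.28 and -4.86 in AAP pools, -5.36, -4.80 and -5.42 in HAN pools and -5.11, -5.40 and -5.42 in PBS pools. AAP 1, HAN 2 and AAP 3 were the highest arrays, and the groups overlapped again. The log2 change of Tie1 was 0.38 in AAP against PBS (-0.11 to 0.87, adjusted p = 0.760), 0.11 in HAN against PBS (adjusted p = 0.898) and 0.27 in AAP against HAN (-0.22 to 0.76, adjusted p = 0.668).

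The difference of the receptors between AAP and the other groups rested on AAP 1 and AAP 3, the pools with muscle transcripts. In AAP 2 alone the log2 change against PBS was -0.17 for Tek and 0.03 for Tie1, and against HAN -0.12 for Tek and -0.09 for Tie1. AAP 2 shared no slide with PBS, so muscle and slide cannot be told apart in its values against PBS. On slide 1, AAP 1 stood 0.47 above the PBS mean for Tek and 0.67 for Tie1. On slide 2 the AAP minus HAN difference was 0.08 for Tek and 0.01 for Tie1. Normexp background correction, which moved the median of all genes by 0.15 in HAN against PBS and by -0.12 in AAP against HAN, turned the AAP minus HAN difference to -0.47 for Tek and -0.51 for Tie1. It also turned Tek in HAN against PBS to 0.72. Over 23 alternatives Tie1 in HAN against PBS ran from -0.08 to 0.78. The probes of both receptors are dim, with processed signals of 52.6 to 89.5 for Tek and 45.4 to 82.4 for Tie1. HAN 2 was among the highest arrays for Tie1 with its muscle markers at -0.14, below the PBS mean. Over the 9 arrays the levels of Tek and Tie1 correlated at r = 0.93, a description over pools that share array, scaling and 3 groups. Leaving out each array in turn gave r of 0.89 to 0.96. Pearson's r with the mean of the muscle markers was 0.85 for Tek, 0.76 for Tie1 and 0.86 for Angpt1 (8 arrays), and that of Angpt1 with Tek was 0.80 (8 arrays). Against the mean of the 19 endothelial markers r was 0.62 for Tek, 0.52 for Tie1 and, over 8 arrays, 0.75 for Angpt1. That mean relative to PBS was 0.22 (AAP 1), -0.22 (AAP 2) and -0.10 (AAP 3), against -0.07 to 0.07 in HAN pools and -0.08 to 0.14 in PBS pools. The part of muscle or of vessel content in the receptor levels was not tested further, and in whole retina a change in the number of endothelial cells and a change in RNA per cell cannot be told apart.

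**Figure D2:**
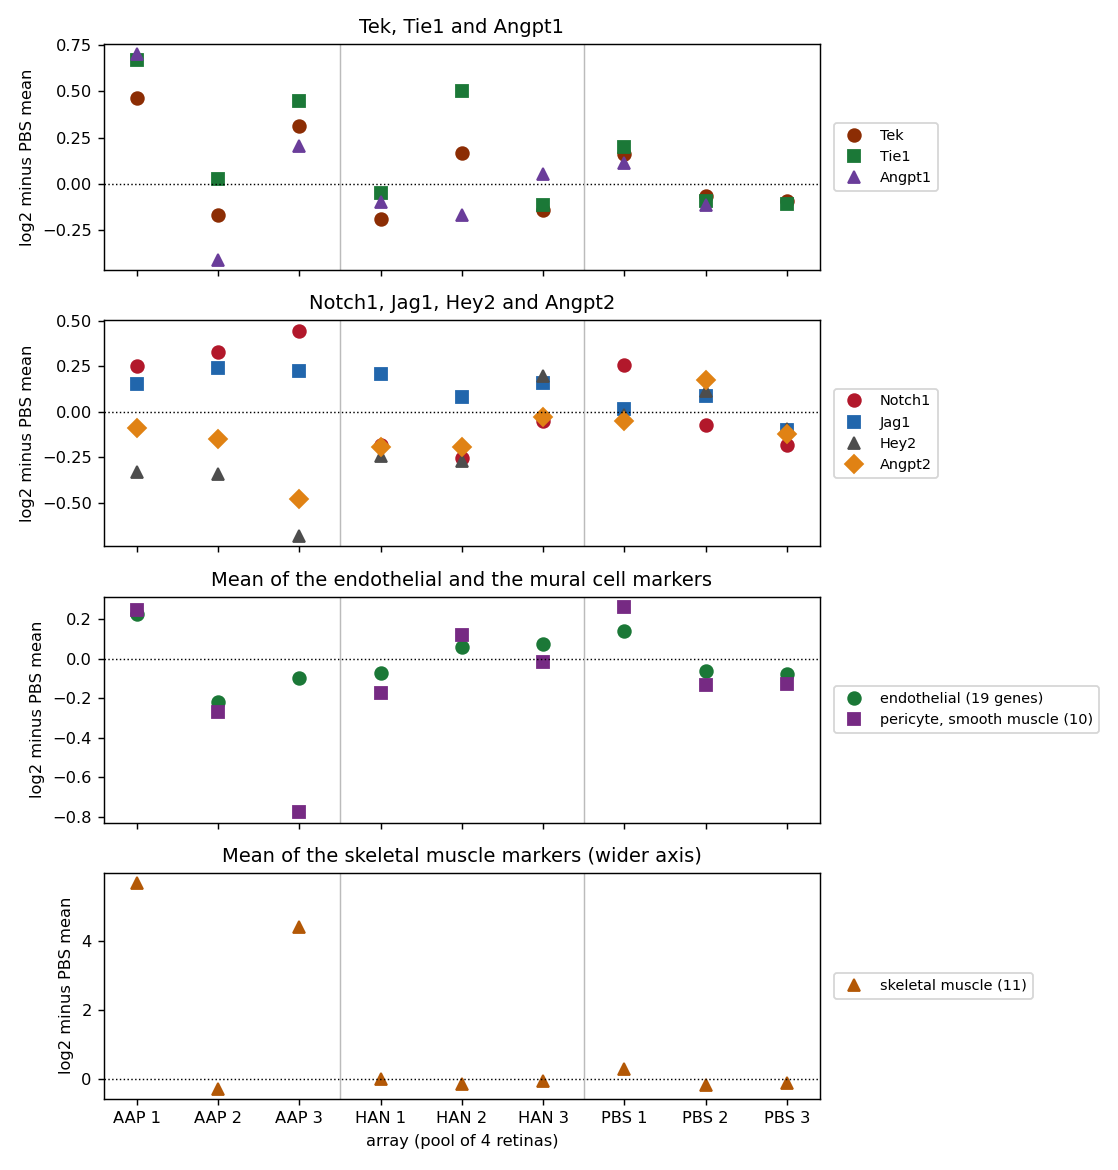
Level on each array relative to the PBS mean (log2; horizontal axis: array, each a pool of 4 retinas) for Tek, Tie1 and Angpt1, for Notch1, Jag1, Hey2 and Angpt2, and for the means of the endothelial, mural and skeletal muscle markers. Tek and Tie1 stood high in AAP 1 and AAP 3, where the muscle markers stood at 5.69 and 4.41, and Tie1 also in HAN 2, where they stood at -0.14.

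Of the Notch ligands, Jag1 (chromosome 2), which in sprouting vessels can oppose Dll4 at the receptor, had log2 levels of 0.93, 1.02 and 1.00 in AAP pools, 0.99, 0.86 and 0.94 in HAN pools and 0.79, 0.86 and 0.68 in PBS pools. Every AAP pool lay above every PBS pool. HAN 2 lay just below PBS 2, the highest PBS pool, and the other HAN pools above it. Jag1 averaged 0.98 ± 0.05 in AAP and 0.78 ± 0.09 in PBS (SD, n = 3 each), a log2 change of 0.21 (95% interval 0.04 to 0.37, 1.15-fold, limma adjusted p = 0.687). Under 24 alternatives the log2 change of Jag1 in AAP against PBS was 0.15 to 0.25, with adjusted p of 0.279 to 1.00. In HAN against PBS it was 0.15 (-0.01 to 0.31, adjusted p = 0.541), and in AAP against HAN 0.06 (-0.11 to 0.22, adjusted p = 0.772). AAP 2 alone stood 0.24 above PBS, and AAP 1, on the slide of the PBS arrays, 0.15.

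Dll4 (chromosome 2), the tip cell ligand that VEGF induces, had log2 levels of -4.83, -4.92 and -4.87 in AAP pools, -5.02, -4.97 and -4.45 in HAN pools and -4.95, -4.91 and -4.83 in PBS pools. HAN 3 stood above the other 8 arrays, which lay within a narrow range. On the log2 scale Dll4 differed by 0.02 in AAP against PBS (95% interval -0.31 to 0.35, limma adjusted p = 0.985), 0.08 in HAN against PBS (-0.25 to 0.41, adjusted p = 0.888) and -0.06 in AAP against HAN (-0.39 to 0.27, adjusted p = 0.880). In linear terms the AAP against PBS interval ran from 0.807-fold to 1.28-fold. Without HAN 3 the value turned to -0.10 in HAN against PBS and to 0.12 in AAP against HAN. Over 23 alternatives the HAN against PBS value ran from -0.10 to 0.65. Over 24 alternatives that of AAP against HAN ran from -0.54 to 0.12. The Dll4 probe is dim, with a processed signal of 45.8 (AAP 3) to 103 (HAN 3).

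Notch1 (chromosome 2) is the receptor through which Dll4 restrains sprouting in mouse retina, and it is also made by Müller glia. Its log2 levels were -0.88, -0.80 and -0.69 in AAP pools, -1.31, -1.39 and -1.18 in HAN pools and -0.88, -1.20 and -1.32 in PBS pools. All AAP pools lay above all HAN pools, and PBS 1 lay just above AAP 1, so AAP and PBS overlapped through that pool. Notch1 averaged -0.79 ± 0.10 in AAP and -1.29 ± 0.10 in HAN (SD, n = 3 each), a log2 change of 0.50 (95% interval 0.22 to 0.78) or 1.42-fold (1.17 to 1.72). Notch1 did not pass (limma adjusted p = 0.574), and over 24 alternatives the change was 0.41 to 0.60 with adjusted p of 0.316 to 0.829. In AAP against PBS the log2 change was 0.34 (0.06 to 0.62, adjusted p = 0.687), and in HAN against PBS -0.16 (-0.44 to 0.12, adjusted p = 0.701). On slide 2 the AAP minus HAN difference was 0.60, and AAP 2 alone stood 0.49 above HAN. Over the 9 arrays Notch1 had r = 0.60 with the mean of the muscle markers, whose part in the Notch1 level was not tested. On slide 1, AAP 1 stood 0.25 above the PBS mean. These values come from 1 of 2 Notch1 probes. The other was well above background on 2 of 9 arrays and was left out by the filter.

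Notch4 (chromosome 17), a receptor found largely in endothelium, had log2 levels of -3.06, -3.14 and -2.94 in AAP pools, -2.92, -3.07 and -3.04 in HAN pools and -2.94, -3.06 and -2.85 in PBS pools. The groups overlapped throughout, and the log2 changes were -0.10 in AAP against PBS (95% interval -0.29 to 0.10, limma adjusted p = 0.844), -0.06 in HAN against PBS (-0.25 to 0.13, adjusted p = 0.859) and -0.04 in AAP against HAN (-0.23 to 0.15, adjusted p = 0.870).

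The Notch targets Hey1 and Hey2 encode related transcriptional repressors, and in mouse Hey2 takes part in giving vessels arterial identity. Hey2 (chromosome 10) had log2 levels of -3.72, -3.73 and -4.07 in AAP pools, -3.63, -3.66 and -3.19 in HAN pools and -3.41, -3.28 and -3.48 in PBS pools. Every AAP pool lay below every HAN and every PBS pool, and AAP 3 was the lowest. Hey2 averaged -3.84 ± 0.20 in AAP, -3.49 ± 0.26 in HAN and -3.39 ± 0.10 in PBS (SD, n = 3 each). The log2 change was -0.45 in AAP against PBS (95% interval -0.80 to -0.10) or 0.732-fold (0.576 to 0.930), with a limma adjusted p = 0.687. Hey2 thus did not pass, and over 24 alternatives the change was -0.51 to -0.19 with adjusted p of 0.264 to 1.00. In AAP against HAN it was -0.34 (-0.69 to 0.00, adjusted p = 0.574), and in HAN against PBS -0.11 (-0.45 to 0.24, adjusted p = 0.857; 0.37 with normexp background correction). AAP 2 alone stood -0.34 from PBS and -0.23 from HAN, AAP 1 -0.33 from PBS on slide 1, and the AAP minus HAN difference on slide 2 was -0.25.

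The Hey2 promoter is shown because Hey2 in AAP lay wholly below PBS and HAN, with the RBPJ core TGGGAA (read as TTCCCA) in capitals at 207 to 202 bases before the start.
Hey2, chr10:30842784-30843033, minus strand: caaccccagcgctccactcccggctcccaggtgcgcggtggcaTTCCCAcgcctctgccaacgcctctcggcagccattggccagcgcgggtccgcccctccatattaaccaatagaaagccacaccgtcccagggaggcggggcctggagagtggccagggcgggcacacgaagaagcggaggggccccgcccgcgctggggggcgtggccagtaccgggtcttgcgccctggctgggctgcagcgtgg
It held no AGGAAG and 1 GGAA, the one within the RBPJ core. The paralogue Hey1 (chromosome 3) had log2 levels of -0.05, 0.22 and 0.13 in AAP pools, 0.14, 0.27 and 0.06 in HAN pools and 0.23, 0.02 and 0.05 in PBS pools. All groups overlapped, with changes of 0.00 in AAP against PBS (95% interval -0.23 to 0.23, limma adjusted p = 0.999), 0.06 in HAN against PBS (-0.17 to 0.28, adjusted p = 0.892) and -0.05 in AAP against HAN (-0.28 to 0.17, adjusted p = 0.839).

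Hey2 and Angpt2 formed the second pair of the 10 genes with r over 0.8, at r = 0.87 over the 9 arrays and 0.73 to 0.91 with each array left out, lowest without AAP 3. The 45 pairs ran from -0.66 to 0.93, with a median of -0.10. Markers of other cells moved with these genes: r was 0.82 between Hey2 and the mean of 14 Müller glia and astrocyte markers, 0.82 between Hey2 and the mean of 14 microglia markers, and 0.78 between Angpt2 and the microglia mean. Hey2 also had r = 0.56 with the pericyte and smooth muscle mean and -0.61 with the skeletal muscle mean. For Angpt2 these values were 0.61 and -0.43, and r was 0.62 with the Müller glia and astrocyte mean. The Müller glia and astrocyte mean relative to PBS was -0.26, -0.15 and -0.45 in AAP pools, -0.05, -0.14 and 0.01 in HAN pools and 0.08, -0.10 and 0.02 in PBS pools. The microglia mean was -0.34, -0.51 and -1.03 in AAP pools, -0.28, -0.90 and -0.10 in HAN pools and -0.02, -0.03 and 0.05 in PBS pools. Both lists were lowest in AAP 3, as Hey2 and Angpt2 were, and all of their markers were well above background on every array. AAP 3 also had the lowest 75th percentile (1340) and the lowest share of spots well above background (71.6%). The part of these cells or of the array signal in the Hey2 and Angpt2 levels was not tested.

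**Figure D3:**
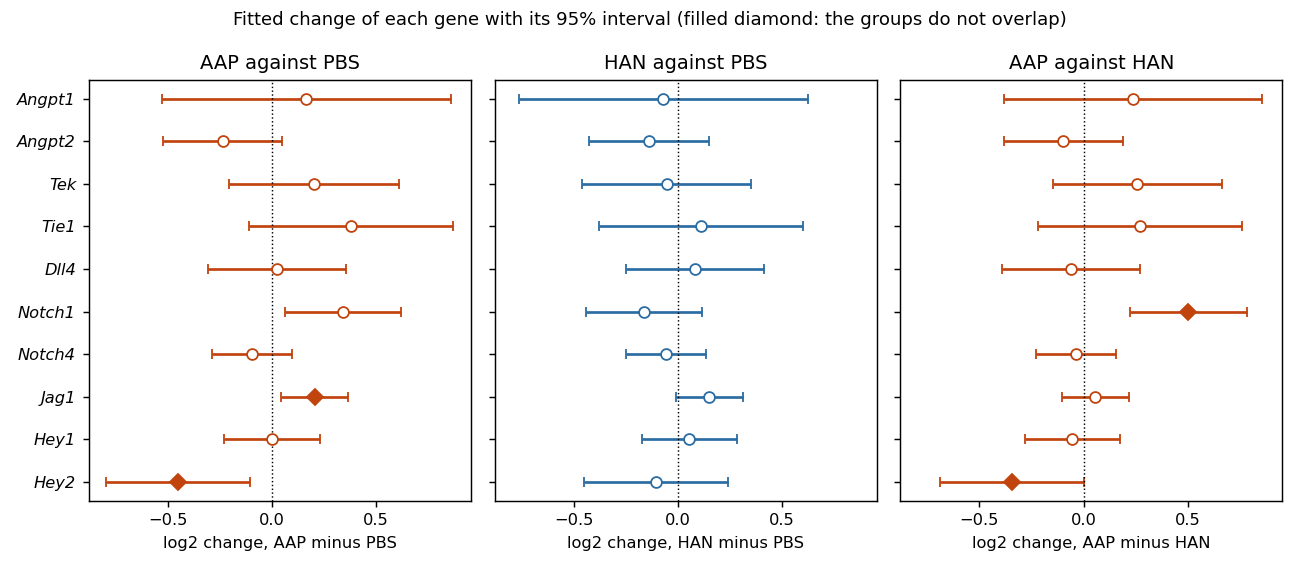
Fitted log2 change of each of the 10 genes in the 3 comparisons (horizontal axis) with its 95% confidence interval from limma; a filled diamond marks groups that did not overlap. The interval of Notch1 in AAP against HAN (0.22 to 0.78) and those of Notch1, Jag1 and Hey2 in AAP against PBS did not include 0, and no gene passed after adjustment.

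The gene whose pattern over the 9 arrays was most like each of the 10 was named among 14654 genes with a symbol that were well above background throughout. It was Kat2b for Angpt2 (r = 0.987), Col1a1 for Tek (0.939, with Tie1 next), Neurl2 for Tie1 (0.955), Gpr37l1 for Dll4 (0.981) and Slc16a7 for Notch1 (0.973). It was Bhlhb9 for Notch4 (0.907), Urb1 for Jag1 (0.942), Fbxo15 for Hey1 (0.938), Gpm6a for Hey2 (0.976) and, over 8 arrays, Bcl2l15 for Angpt1 (0.980). With 9 arrays and this many candidates high values of r are common: between 1 and 121 candidates exceeded 0.9 for each gene.

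Of 14 other angiopoietin-Tie pathway genes 13 were tested (Angpt4 was not), and none passed in any comparison (limma, adjusted p of 0.574 or higher). At an unadjusted p under 0.05 there were 0 of 13 in AAP against PBS (6.78% of all genes), 0 of 13 in HAN against PBS (9.66%) and 1 of 13 in AAP against HAN (8.54%). Their median log2 change was -0.05 in AAP against PBS, 0.05 in HAN against PBS and -0.03 in AAP against HAN. Itga5, the integrin subunit that forms the fibronectin receptor, was the gene of AAP against HAN, with a log2 change of -0.60 (adjusted p = 0.574). It was well above background in 2 of 3 AAP arrays, and its change against PBS was -0.47 (adjusted p = 0.747), or 0.05 with normexp background correction. AAP 2 alone stood -0.26 from PBS and -0.39 from HAN. Its partner Itgb1 had -0.16 in AAP against PBS and -0.22 in AAP against HAN. Dok2, an adaptor that docks to Tek, had 0.21 in AAP against PBS (0.0080 in AAP 2 alone) and 0.22 in HAN against PBS. Svep1, a matrix protein and ligand of Tie1, had 0.54 in HAN against PBS. The Svep1 value rested largely on HAN 3 (log2 level -2.48, against -3.68 in HAN 1 and -3.35 in HAN 2), the only array of slide 3. Without HAN 3 it was 0.19. The kinase subunits Pik3r1 (0.14 in AAP against PBS) and Pik3ca (0.10 in HAN against PBS, -0.18 in AAP against HAN) lay close to 0. So did Foxo1, the transcription factor that Tek signalling keeps out of the nucleus (0.07 in HAN against PBS, -0.18 in AAP against HAN).

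Of 35 other Notch pathway genes 33 were tested, and none passed in any comparison (limma, adjusted p of 0.574 or higher). At an unadjusted p under 0.05 there were 2 of 33 in AAP against PBS (6.78% of all genes), 0 of 33 in HAN against PBS (9.66%) and 3 of 33 in AAP against HAN (8.54%). The median log2 change of the 33 was 0.02 in AAP against PBS, 0.01 in HAN against PBS and 0.02 in AAP against HAN. Adam17, a metalloprotease that can shed Notch receptors and ligands, had log2 levels of -4.43, -4.45 and -4.24 in AAP pools, -4.65, -4.67 and -4.74 in HAN pools and -4.57, -4.65 and -4.66 in PBS pools. Every AAP pool lay above every other pool. Of all genes, 6.43% had AAP wholly above PBS and 7.52% had AAP wholly above HAN. The log2 change was 0.25 in AAP against PBS (95% interval 0.08 to 0.42, adjusted p = 0.674) and 0.31 in AAP against HAN (adjusted p = 0.574), and a further Adam17 probe gave 0.22 in AAP against PBS and 0.30 in AAP against HAN. The probe is dim, and with normexp background correction the AAP against HAN value turned to -0.35. AAP 2 alone stood 0.17 from PBS and 0.23 from HAN. Lfng, a glycosyltransferase that changes which ligands Notch responds to, had log2 levels of -3.55, -3.22 and -3.88 in AAP pools, -2.91, -2.90 and -2.99 in HAN pools and -2.83, -3.37 and -3.22 in PBS pools. AAP lay wholly below HAN, as in 6.82% of all genes, and overlapped with PBS. The log2 change of Lfng was -0.62 in AAP against HAN (adjusted p = 0.574) and -0.41 in AAP against PBS (adjusted p = 0.731). In AAP 2 alone these Lfng values were -0.29 against HAN and -0.084 against PBS.

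Heyl, the third Hey family repressor, had -0.74 in AAP against HAN (limma adjusted p = 0.574) and 0.44 in HAN against PBS. Spen, a corepressor of RBPJ, had 0.19 in AAP against PBS (-0.046 in AAP 2 alone) and 0.16 in HAN against PBS. The repressor Hes7 had -0.13 in HAN against PBS. Aph1b, a subunit of the gamma-secretase that releases the Notch intracellular part, had 0.10 there, against -0.23 from its other probe.

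**Figure D4:**
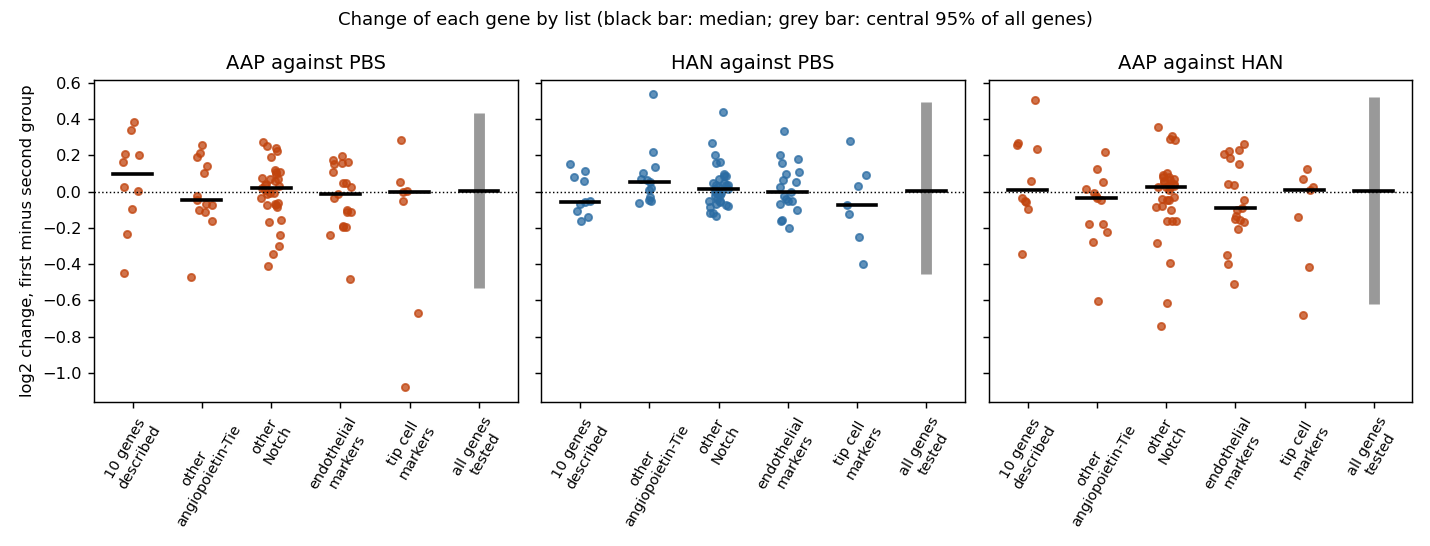
Log2 change of each gene in the 3 comparisons (vertical axis) for the 10 genes, the other angiopoietin-Tie and Notch genes, endothelial and tip cell markers (black bar: median of a list; grey bar: range that holds the central 95% of all genes tested). The medians of the 10 genes were 0.09, -0.06 and 0.01 from left to right, and most genes of every list lay within the grey bar.

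Of the endothelial markers 0 of 19 passed in any comparison (limma), with 0 at an unadjusted p under 0.05 in AAP against PBS (6.78% of all genes), 0 in HAN against PBS (9.66%) and 1 in AAP against HAN (8.54%). Their median log2 changes were -0.01 in AAP against PBS, -0.01 in HAN against PBS and -0.09 in AAP against HAN. The 1 gene was Abcb1a, the efflux pump of the blood-retina barrier, at -0.21 in AAP against HAN (adjusted p = 0.574), -0.11 in AAP against PBS and 0.09 in HAN against PBS. In AAP against PBS the tight junction gene Cldn5 had -0.19, Vwf, the von Willebrand factor, -0.48, and the secreted factor Egfl7 0.19. AAP 2 alone stood -0.31 (Cldn5), -0.85 (Vwf) and -0.048 (Egfl7) from PBS. In AAP against HAN the glucose transporter Slc2a1 had -0.40, Vwf -0.51 and the adhesion molecule Icam2 0.26. AAP 2 alone stood -0.078 (Slc2a1) and -0.033 (Icam2) from HAN. Its Vwf level of -1.86 lay below all HAN pools (-0.67, -1.01 and -1.24). In HAN against PBS Egfl7 had 0.16, Icam2 -0.15 and the transcription factor Sox17 -0.16, where a second Sox17 probe gave 0.10.

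Of 8 tip cell markers 7 were tested (Cxcr4 was not) and none passed (limma). At an unadjusted p under 0.05 there was 1 in AAP against PBS (6.78% of all genes), 0 in HAN against PBS (9.66%) and 1 in AAP against HAN (8.54%), both times Plaur, the urokinase receptor. Plaur had log2 levels of -5.56, -6.28 and -6.19 in AAP pools, -5.35, -5.78 and -4.86 in HAN pools and -4.67, -4.90 and -5.23 in PBS pools. AAP lay wholly below PBS, as in 5.53% of all genes, with 1 of 3 AAP arrays well above background. The log2 change was -1.08 in AAP against PBS (adjusted p = 0.632), -0.68 in AAP against HAN (adjusted p = 0.574) and -0.40 in HAN against PBS. AAP 2 alone stood -1.35 from PBS and -0.96 from HAN. Nid2, a basement membrane protein, had -0.67 in AAP against PBS and -0.42 in AAP against HAN. In AAP 2 alone these Nid2 values were 0.043 and 0.30. Kcne3, a potassium channel subunit, had 0.28 in AAP against PBS and in HAN against PBS. The HAN value of Kcne3 rested on HAN 3 (log2 level -4.40, against -5.94 in HAN 1 and -5.88 in HAN 2). Without HAN 3 it was -0.23. Pdgfb, which recruits pericytes, had -0.05 in AAP against PBS, 0.09 in HAN against PBS and -0.14 in AAP against HAN. Another Pdgfb probe gave -0.73 in AAP against PBS, -0.56 in HAN against PBS and -0.17 in AAP against HAN. Unc5b, the netrin receptor of tip cells, had -0.07 in HAN against PBS and 0.07 in AAP against HAN.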

How the data were processed

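RNA from 9 retinal pools was labelled with Cy3 and hybridised to 1-colour Agilent arrays. Per the file headers, Feature Extraction 11.0.1.1 (protocol GE1_1100_Jul11, design annotated on mm9) gave the deposited processed signal, an intensity on a linear scale, background-subtracted and not scaled across arrays. The value table that the authors deposited equalled the mean processed intensity of a probe's spots for 99.7% to 99.8% of probes (relative tolerance 1e-04). Its column medians were 265.5, 237.6 and 164.7 for AAP 1 to 3, 251.1, 242.5 and 296.5 for HAN 1 to 3, and 298.3, 256.4 and 231.9 for PBS 1 to 3. Scale and direction are thus known, and it is not centred.

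Control spots and outlier spots (103 to 160 an array) were left out; no spot was saturated. The log2 intensity, computed here from the deposited signal, was reduced by the array's 75th percentile, which ran from 1340 (AAP 3) to 2349 (PBS 1), with 71.6% to 79.2% of spots well above background. Precision is limited by the number of arrays. Spots of a probe were averaged. A probe was kept if well above background on all arrays of at least 1 group, and the brightest kept probe stood for its gene. Probes were named by matching accessions without versions to RefSeq (GRCm38.p6): 26055 probes matched 19751 symbols and 13374 kept their accession. Promoters came from RefSeq (GRCm38.p6). Groups were compared with limma 3.58.1 (R 4.3.3; lmFit, eBayes, two-sided, 1 mean per group, 6 residual and 1.85 prior degrees of freedom), adjusted by Benjamini-Hochberg across 23889 genes, with adjusted p under 0.05 as the threshold. The fit was tested on simulated data with known changes in AAP against PBS. It recovered 34% of 50 genes with a log2 change of 0.5 and 82% of 50 with a change of 1, with 9 false calls. In that simulation changes of 0.5 were thus mostly missed.

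Named genes were the 10 genes with every probe, up to 4 genes with the smallest p per comparison from each of the other angiopoietin-Tie, other Notch, endothelial and tip cell lists, and for each of the 10 the gene of highest Pearson's r among curated RefSeq messenger RNAs with a symbol, well above background on all arrays. A gene that this rule names is not reported here. The members and lists were chosen with earlier results of these data known. The same replicate numbers were not taken to pair the pools. Correlations of same-numbered deviations from the group means ran from -0.28 to 0.40, which cannot decide whether pools were paired. Alternatives were other background correction, scaling, filters, probe summary, array weights, slide and replicate blocks, and each array left out. The normexp alternative used the median spot signal, in place of the planned mean signal, which was not used here.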

Additional observations from a re-analysis of the deposited data

Results flagged for a closer look

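For 4 of 36 members and named genes, which include 1 of the 10 members, every AAP pool lay on one side of the PBS mean and every HAN pool on the other. The same held for 2.58% of all genes tested (616 of 23889), and the named genes were chosen for their small p. Notch1 stood 0.25, 0.33 and 0.45 above the PBS mean in AAP pools and at -0.18, -0.25 and -0.05 in HAN pools, a log2 difference of 0.50 (limma adjusted p = 0.574). Adam17 stood at 0.19, 0.17 and 0.38 in AAP pools and at -0.02, -0.04 and -0.12 in HAN pools, a difference of 0.31 (adjusted p = 0.574). Lfng stood at -0.41, -0.08 and -0.74 in AAP pools and at 0.22, 0.24 and 0.15 in HAN pools, a difference of -0.62 (adjusted p = 0.574). Itga5 stood at -0.11, -0.26 and -1.04 in AAP pools and at 0.17, 0.04 and 0.19 in HAN pools, a difference of -0.60 (adjusted p = 0.574). None of the differences passed, and both sides are measured from the same 3 PBS arrays.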

How the results depend on the processing

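None of the 10 members and none of the 13 other angiopoietin-Tie and 33 other Notch genes tested passed under any alternative with a test, and the lowest adjusted p of a member was 0.264 (limma). With each array left out, 0 members passed in every comparison. Over all alternatives, 1 to 4 of 10 members had an unadjusted p under 0.05 in AAP against PBS, 0 to 1 in HAN against PBS and 1 to 3 in AAP against HAN. In the main fit 6.78%, 9.66% and 8.54% of all genes met that threshold. The share under each alternative is not given, so these counts cannot be read against it. With the replicate number as a block, which was not taken to pair the pools, 0 members passed. The changes were then 0.34 for Notch1, 0.21 for Jag1 and -0.45 for Hey2 in AAP against PBS (limma adjusted p = 0.799 each). Over all genes the calls in AAP against PBS were 1, against 46 with slide as a fixed block and 12 without AAP 2 (0 or 1 under the others). In HAN against PBS they were 1, against 2 with slide as a fixed block, 2 without HAN 1, 3 with array weights and 3 without HAN 2 (0 or 1 under the others). In AAP against HAN they were 0, against 13 without AAP 2 and 1 without HAN 2 (0 under the others). The cause of these differences was not tested.

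Of 1838 values of the members and named genes under alternatives, 79 changed sign, and none of these genes passed. Normexp background correction gave 0.023 (Notch4) and 0.050 (Itga5) in AAP against PBS. In HAN against PBS it gave 0.48 (Angpt1), 0.15 (Angpt2), 0.72 (Tek), 0.37 (Notch4), 0.37 (Hey2), 0.50 (Plaur) and 0.43 (Sox17). In AAP against HAN it gave -0.31 (Angpt1), -0.47 (Tek), -0.51 (Tie1) and -0.35 (Adam17). Quantile normalization gave -0.0019 (Dll4) and -0.0066 (Hey1) in AAP against PBS, array median scaling -0.017 (Dll4) and -0.039 (Hey1), and the deposited table -0.41 (Angpt1) and -0.0071 (Hey1). The mean over probes gave -0.065 (Aph1b) and -0.24 (Pdgfb) in HAN against PBS. Array weights gave 0.011 (Tek), -0.042 (Dll4) and -0.035 (Kcne3) in HAN against PBS and 0.047 (Dll4) in AAP against HAN.

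Slide as a fixed block gave -0.15 (Hey1), 0.074 (Pdgfb) and 0.20 (Vwf) in AAP against PBS, and 0.10 (Dll4) in AAP against HAN. In HAN against PBS it gave 0.67 (Angpt1), 0.031 (Angpt2), 0.38 (Tek), -0.036 (Dll4), -0.13 (Hey1), -0.065 (Aph1b), 0.017 (Icam2), -0.62 (Kcne3), 0.043 (Plaur) and 0.19 (Sox17). Slide as a random block gave -0.026 (Hey1) in AAP against PBS and 0.026 (Angpt1) in HAN against PBS. With outlier spots kept, an alternative chosen after seeing the data, the AAP against PBS value was -0.40 (Angpt1). AAP 2 alone, likewise chosen after seeing the data, gave -0.41 (Angpt1), -0.17 (Tek), -0.026 (Dll4), -0.048 (Egfl7), 0.043 (Nid2) and -0.046 (Spen) against PBS, and -0.34 (Angpt1), -0.12 (Tek), -0.085 (Tie1), 0.069 (Hey1), -0.033 (Icam2), 0.30 (Nid2) and -0.0094 (Unc5b) against HAN. With each array left out, the values that changed sign spanned the following ranges: in AAP against PBS Angpt1 -0.10 to 0.45, Dll4 -0.0046 to 0.054, Hey1 -0.061 to 0.078 and Pdgfb -0.13 to 0.048; in HAN against PBS Angpt1 -0.18 to 0.045, Tek -0.16 to 0.027, Tie1 -0.082 to 0.23, Dll4 -0.10 to 0.19, Hey1 -0.0026 to 0.12, Foxo1 -0.0041 to 0.13 and Kcne3 -0.23 to 0.55; and in AAP against HAN Angpt1 -0.033 to 0.52, Angpt2 -0.17 to 0.022, Dll4 -0.17 to 0.12, Notch4 -0.093 to 0.010, Hey1 -0.12 to 0.023 and Nid2 -0.83 to 0.11.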
